A study of Mus musculus with 4 samples.

Results

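RNA from WT tail-tip fibroblasts was compared with RNA from WT whole embryos at E13.5, by the reads that each library placed on single LTR and LINE loci and on intervals beside them. The fibroblasts were SV40-transformed cultures grown from the tail-tips of adult mice, a model of a dividing cell line rather than of skin, and the embryo sample holds every cell type of a mid-gestation embryo. Both samples are labelled strain C57BL/6J and genotype WT, although the study's description of its embryos speaks of heterozygous and homozygous Lsh animals, so the embryo's WT genotype rests on the label. The series also holds an Lsh-/- library of each tissue, which lack the chromatin remodeller Lsh (gene symbol Hells). Every autosomal entry of the 6 tables of each WT library was used. These were 459316 table entries with a read in either WT library, of 640693 entries in the whole series on all chromosomes, and 309546 of them were listed in fibroblasts and 368640 in embryos. Repeat elements made up 103341 of the entries, with 977 IAP, 2323 non-IAP LTR, 86796 LINE-1 and 13245 other LINE loci, and the rest were intervals around them. There was 1 library a side, so no difference below has a replicate check, no test was made, and intervals cover counting error only. Which repeats are transcribed in each normal tissue is the question that the comparison addresses.

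LTR retrotransposons are remnants of retroviruses whose long terminal repeats (LTRs) carry a promoter and a polyadenylation signal, and intracisternal A-particles (IAPs) are a young and still mobile mouse group of the ERVK family. LINE elements have no LTR. LINE-1 includes young mobile copies, while L2, CR1 and L3 are ancient and immobile. In most somatic cells these elements are held silent by DNA methylation and repressive chromatin, and a read on an element can also come from a longer gene transcript that runs through it.

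Summed over its 6 tables, the fibroblast library came to 29787223 counts and the embryo library to 33904311. In fibroblasts, 37.3% of all counts on autosomal flanking intervals lay in 6 overlapping intervals on chromosome 17, against 2.19% in embryos. Library totals therefore compare poorly, and counts were scaled by TMM factors to effective sizes of 19566938 for fibroblasts and 31748728 for embryos. Levels below are scaled CPM (counts per 1000000 of these sizes), and log2 differences are fibroblasts over embryos, so that a value below 0 is higher in embryos. With the total of the 6 tables in place of TMM, every log2 difference would be lower by 0.51. A locus was compared when its counts in both libraries came to 20 or more and called higher in a tissue when it passed 4-fold (2 on the log2 scale).

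The first 30 bases of named LTR loci are shown to let the loci that differed between the tissues be set beside their relatives. Each is read 5′ to 3′ on the element's own strand from the mm9 sequence, and capitals mark a starting TG, the dinucleotide with which an intact LTR begins.
IAPLTR1_Mm, higher in fibroblasts, chr8:23661640-23661669, plus strand: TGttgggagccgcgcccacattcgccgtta
IAPLTR1_Mm, higher in fibroblasts, chr7:144606702-144606731, plus strand: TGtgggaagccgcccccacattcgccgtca
IAPLTR1_Mm, higher in embryos, chr12:74416818-74416847, minus strand: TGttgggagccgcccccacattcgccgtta
RLTR4_Mm, higher in fibroblasts, chr11:5905655-5905684, plus strand: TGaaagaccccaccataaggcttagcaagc
RLTR46, higher in embryos, chr6:3291452-3291481, minus strand: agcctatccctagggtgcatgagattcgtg
RLTR46, higher in embryos, chr7:55387654-55387683, minus strand: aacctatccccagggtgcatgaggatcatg
The IAPLTR1_Mm start on chromosome 8 differed from that on chromosome 12 at 1 of 30 bases, although the counts of these loci lay in opposite directions. The RLTR46 starts differed from each other at 5 of 30 bases and neither began with TG. Among all 557 LTR loci compared, 347 (62.3%) began with TG.

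IAP elements held few reads in either tissue. WT fibroblasts held 2086 counts on 514 listed IAP loci and WT embryos 5658 counts on 728, or 574 loci if the embryo library is thinned to the fibroblast size. Scaled, this was 107 CPM in fibroblasts and 178 in embryos, 0.598 of the embryo level. In RNA from a whole embryo, fewer cells of a type and less RNA per cell cannot be told apart. Per kilobase of listed element the level was 0.0202 against 0.0337 CPM, the lowest of the 4 classes in both tissues. Only unique hits were kept, so young, near-identical copies receive few counts, and this order does not rank the classes by transcription. Of the 51 IAP loci compared, 4 were called higher in fibroblasts and 12 in embryos, beside 4.85% and 26.2% of all LTR loci, and 27 lay within 2-fold of equal. The median log2 difference was -0.66.

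Single IAP loci differed in both directions. An IAPLTR1_Mm element in an intron of Slc20a2, a phosphate transporter gene, on chromosome 8 held 55 counts in fibroblasts and 17 in embryos (log2 2.38, 95% counting interval 1.59 to 3.27), but its interval at higher coordinates held 1082 and 1980 counts, and the call is lost under the total of the 6 tables. An IAPLTR1_Mm on chromosome 7, 4257 bp from the nearest coding gene, 9430038I01Rik, held 31 and 5 counts (3.29, 1.96 to 5.05) with 0 counts on both flanking intervals in both tissues. An IAPLTR1a_Mm in an intron of Cflar, which encodes an inhibitor of caspase-8, held 29 and 7 counts. All 3 thus rest on few reads, and their intervals are wide. On the embryo side, an IAPLTR2_Mm in an intron of Svil, the gene of the actin-binding protein supervillin, held 21 counts in fibroblasts and 220 in embryos (-2.69, -3.41 to -2.04), beside 169 and 938 counts on the interval at lower coordinates. An IAPEY2_LTR element on chromosome 7 held 12 and 109, and an IAPLTR1_Mm that overlaps an exon of Slc38a6 held 4 and 87. The IAP loci with the most reads in both tissues, an IAPLTR2b on chromosome 5 with 112 and 329 counts and an IAPLTR2a in an intron of Senp2, a SUMO protease gene, with 111 and 243, lay within 2-fold of equal (-0.86 and -0.43).

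**Figure D1:**
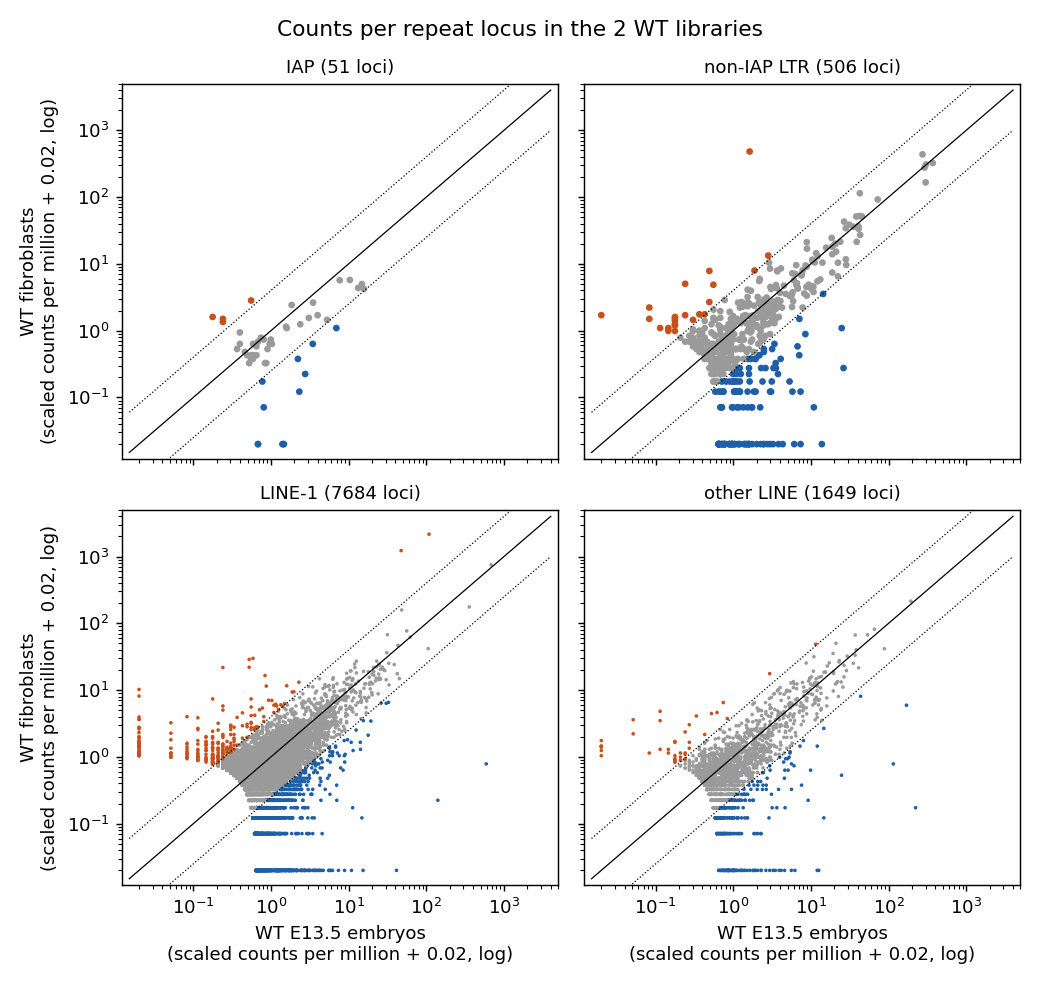
Scaled CPM of each repeat locus in WT E13.5 embryos (x axis) and WT fibroblasts (y axis), both on log scales with 0.02 added, for loci that reached 20 counts over both libraries. The solid line marks equal levels, dotted lines 4-fold, orange loci are called higher in fibroblasts and blue ones in embryos. The blue points outnumber the orange in every class, and a single non-IAP LTR and a pair of LINE-1 loci stand far above the line.

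Non-IAP LTR loci held 72092 counts in fibroblasts and 114494 in embryos, 3684 against 3606 scaled CPM, a ratio of 1.02 that falls below 1 under the total of the 6 tables. These near-equal totals hid differences in both directions. Of 506 loci compared, 23 (4.55%) were called higher in fibroblasts, 134 (26.5%) in embryos, and 227 lay within 2-fold. Over all elements compared these shares were 3.25% and 16.9%, and over flanking intervals 3.2% and 15.9%. Overlapping entries were kept as separate loci here and throughout, so some reads can count more than once. An LTRIS_Mm (23 and 5 counts) and an RLTR13D5 (27 and 5) that overlap on chromosome 10 were both called higher in fibroblasts. At 53 of the 506 loci the fibroblast library held no read, against 1 locus with none in embryos. Loci entered by a raw sum and the embryo library was the larger, so loci read only in embryos enter more easily. The same holds for the subfamilies below. Families were counted over all 557 LTR loci compared, with the IAP loci included. ERV1, the group of murine leukaemia virus relatives, had 9 of 131 loci higher in fibroblasts and 42 (32.1%) in embryos. ERVK, to which the 51 IAP loci belong, had 17 and 102 (25%) of 408, and ERVL, with only 18 loci compared, had 1 and 2.

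The locus that differed most in counts on the fibroblast side was an RLTR4_Mm element on chromosome 11 (chr11:5905655-5911518, plus strand). It held 9422 counts in WT fibroblasts and 51 in WT embryos, and 3535 and 40 in the Lsh-/- libraries of the same tissues. The log2 difference between the WT tissues was 8.22 (7.83 to 8.65), 299-fold. It lies in an intron of Camk2b, a calmodulin-dependent kinase gene on the opposite strand, and its flanking intervals held 0 counts in fibroblasts. This locus alone held 31.6% of all ERV1 counts in fibroblasts. The ratio of ERV1 totals, fibroblasts over embryos, was 1.51 with it and 1.03 without it. The other named loci on this side were smaller, an RLTR9D that overlaps an exon of I830134H01Rik with 260 and 89 counts and an RLTR16 that overlaps an exon of Atm, the gene of a DNA damage kinase, with 155 and 59. Their log2 differences of 2.24 and 2.09 would not pass 2 under scaling by the total of the 6 tables.

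On the embryo side the leading loci were RLTR46 elements. That on chromosome 6 (chr6:3283361-3291481) held 5 counts in fibroblasts and 835 in embryos (-6.66, -8.31 to -5.46), and that on chromosome 7 (chr7:55379494-55387683) held 21 and 791 (-4.53, -5.24 to -3.91). Neither overlaps an annotated gene, the nearest coding genes being 30776 and 35670 bp away, and their flanking intervals held at most 10 counts. An RLTR17 in an intron of Il1r1, an interleukin-1 receptor gene, held 69 and 456 (-2.02), a call that is lost with DESeq2 size factors. The chromosome 6 element differed between the genotypes in fibroblasts, with 335 counts in the Lsh-/- line, whereas the chromosome 7 element held 3 there.

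Some LTR loci with many reads in both tissues resemble the transcripts of other genes. The non-IAP loci with the most counts within 2-fold of equal were an LTR16A on chromosome 6, with 6334 counts in fibroblasts and 11786 in embryos (-0.20, -0.24 to -0.15), and an RLTR9A on chromosome 13, with 6020 and 9624 (0.02, -0.03 to 0.07). The first holds 298 bases that match the transcript of Rpl38 at 99.7% identity, and the second 364 bases that match Rpl37a at 99.7%. Both genes encode ribosomal proteins that every cell makes. An RLTR9D on chromosome 13 with 5419 and 9218 counts likewise holds 1908 bases with 98.7% identity to Actg1, which encodes a cytoplasmic actin. Among the 10 LTR loci with the most counts in each tissue, 5 held such a match to a gene that the locus does not overlap, of at least 200 bases at 97% identity or more. These carried 36.8% of all LTR counts in fibroblasts and 33.8% in embryos. Named loci that differed between the tissues held such matches too. The RLTR46 on chromosome 7 matches Gm8113 over 2501 bases at 97.4%, and the IAPLTR1_Mm loci on chromosomes 7 and 8 match transcripts of Slc38a6, an exon of which overlaps another IAPLTR1_Mm, over 3342 bases at 97.5% and 97.8%. This search was made after the values were seen, and whether the reads come from the locus or from the gene was not tested.

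**Figure D2:**
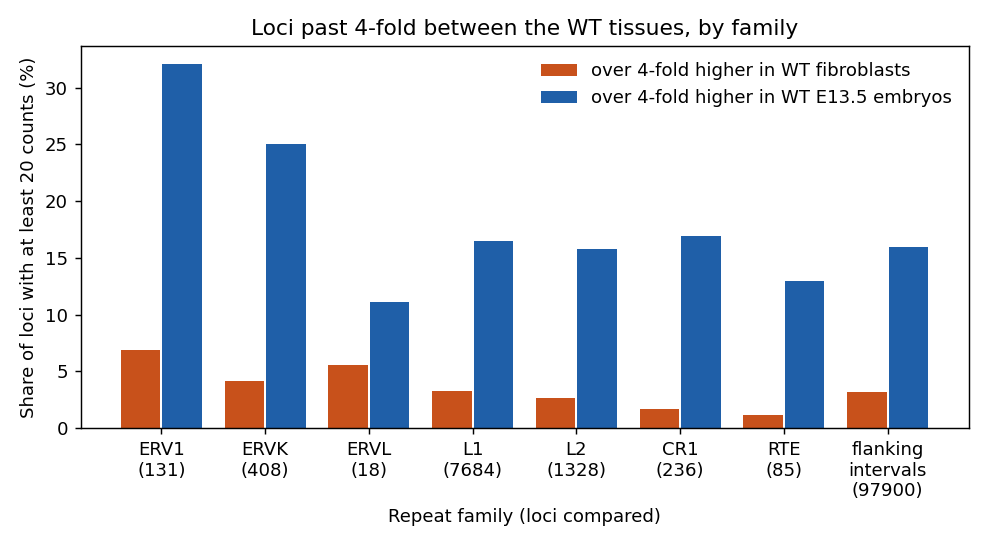
Share of loci with at least 20 counts that passed 4-fold in either direction, by repeat family, with the number of loci compared in brackets and all flanking intervals as background. The embryo shares of ERV1 (32.1%) and ERVK (25%) stand above the 15.9% of the flanking intervals, and the LINE families lie close to it.

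Subfamilies were described where at least 10 loci could be compared, which held for 17 LTR and 87 LINE subfamilies. Over all loci compared, 26.2% of LTR and 16.4% of LINE loci were called higher in embryos, and 4.85% and 3.15% in fibroblasts. The subfamilies named are the extremes of these many groups. RLTR46 had the largest share of loci higher in embryos, 15 of 23 (65.2%), with 1 higher in fibroblasts and a median of -4.13, or -3.24 with counts of 0 set to 3. Of the 40 RLTR46 loci listed in either tissue, 27 were listed in fibroblasts and 38 in embryos, with 501 and 3984 counts. The most abundant locus in embryos, on chromosome 6, held 21% of the embryo counts. A further RLTR46 on chromosome 9, on no annotated gene, held 2 and 233 counts, and in the Lsh-/- libraries 318 in fibroblasts and 82 in embryos. The locus against the trend, on chromosome 3, held 153 counts in fibroblasts and 15 in embryos (4.03), 30.5% of the subfamily's fibroblast counts.

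RLTR6_Mm had 24 of 44 loci (54.5%) higher in embryos and 0 in fibroblasts, with a median of -2.52, or -2.04 with counts of 0 set to 3. At 12 of the 44 the fibroblast library held no read. The summed level went the other way, 169 scaled CPM in fibroblasts and 142 in embryos (3315 and 4524 counts), and 67.3% of the fibroblast counts lay on a single locus on chromosome 11 with 2231 and 1353 counts (1.42). With the total of the 6 tables, the sum is lower in fibroblasts. RLTR10D had 6 of 14 loci higher in embryos and RLTRETN_Mm 10 of 24, with 0 and 1 higher in fibroblasts. RLTRETN_Mm includes the LTRs of early transposons (ETn), a mobile mouse group that is known to be transcribed in embryos. RLTR45 followed with 3 of 10 (30%), near the 26.2% of all LTR loci. Among LINE subfamilies, L1ME3 had 5 of 14 loci, Lx3B 11 of 33 and HAL1-3A_ME 7 of 21 higher in embryos, beside 16.4% of all LINE loci.

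The largest shares called higher in fibroblasts were those of RLTR4_Mm (3 of 16 loci, 18.8%), RLTR14 (2 of 11), IAPLTR1_Mm (3 of 17), RLTR1B (2 of 15) and Lx3_Mus, a LINE-1 group (9 of 75). Each rests on few loci, beside 4.85% of all LTR and 3.15% of all LINE loci. In the same order, 4, 2, 4, 1 and 10 loci of these subfamilies were higher in embryos. The 3 RLTR4_Mm loci lie on chromosome 11 between 5905655 and 8829280, in an order of 9422 and 51, 29 and 2, and 33 and 0 counts in fibroblasts and embryos. An RLTR4_Mm on chromosome 5 held 8533 and 8690, the second highest count of the subfamily in fibroblasts and the highest in embryos, and lay within 2-fold (0.67).

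**Figure D3:**
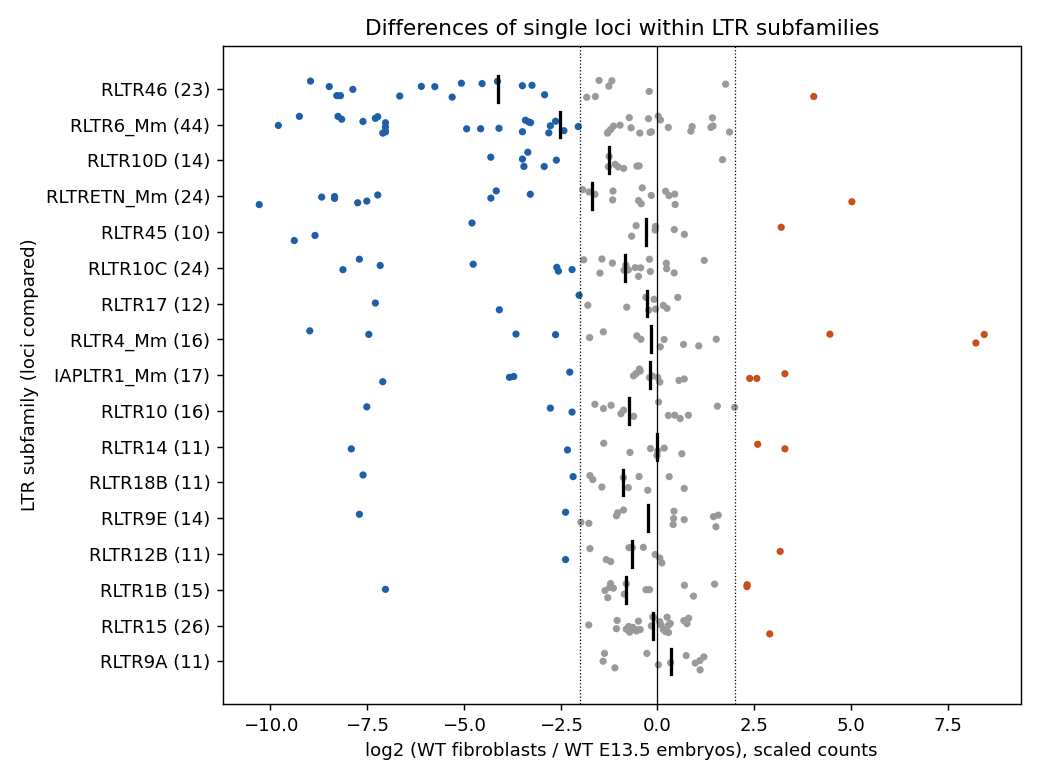
Log2 differences (x axis, fibroblasts over embryos) of single loci in the 17 LTR subfamilies with at least 10 loci compared, ordered by their share higher in embryos. Bars mark medians, dotted lines 4-fold, and colours the calls. RLTR46 and RLTR6_Mm have medians of -4.13 and -2.52, while RLTR4_Mm has loci beyond 4-fold on both sides.

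LINE-1 loci held 365997 counts in fibroblasts and 617844 in embryos, 18705 and 19460 scaled CPM. Of 7684 loci compared, 254 were called higher in fibroblasts and 1266 in embryos, beside 3.15% and 16.4% of all LINE loci, and 4076 lay within 2-fold. The flanking intervals gave 3.2% and 15.9% of 97900 intervals, so that LINE-1 shares lay near those of the sequence around them. The median log2 difference was -0.58 for LINE-1 loci and -0.30 for the intervals. Other LINE loci held 4170 and 5391 scaled CPM, and 40 of 1649 were higher in fibroblasts and 261 in embryos.

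A pair of LINE-1 loci dominated the fibroblast table. An L1Md_T on chromosome 13 (chr13:9831267-9837911), on which the annotation places the miRNA mmu-mir-2134-4, held 42369 counts in WT fibroblasts and 3441 in WT embryos (4.32, 4.27 to 4.37). An L1Md_F3 on chromosome 2 (chr2:90234648-90235368) held 24030 and 1506 (4.69, 4.62 to 4.77). Their counts were 1787 and 1421 in Lsh-/- fibroblasts and 3516 and 2037 in Lsh-/- embryos. The L1Md_T locus held 95.4% of all L1Md_T counts in fibroblasts, and the L1Md_F3 locus 91% of those of L1Md_F3. The ratio of LINE-1 totals, fibroblasts over embryos, was 0.961 with them and 0.793 without them.

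By raw counts, the 4 libraries stood in the same order on the chromosome 17 intervals. The interval with the most reads (chr17:39984057-39985056) held 2901346 counts in WT fibroblasts, 184185 in WT embryos, 153242 in Lsh-/- fibroblasts and 251271 in Lsh-/- embryos, 25.6-fold higher in WT fibroblasts than in WT embryos. The fold was 20 for the L1Md_T and 25.9 for the L1Md_F3 locus. GENCODE places AY036118 there, a pseudogene that in the RefSeq annotation of a later build lies beside a sequence related to the small-subunit ribosomal RNA. Another L1Md_T, on chromosome 16, singled out after its values were seen, held 324, 26, 10 and 28 counts in the same order of libraries. The 140 bases directly beside it match chr17:39983297-39983436 at 100% identity. The part of ribosomal RNA in the counts of these L1 loci was not tested.

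The other LINE-1 loci named for a difference overlapped exons. The third locus on the fibroblast side, an Lx2 that overlaps an exon of Il1rl1, the interleukin-33 receptor gene, held 584 and 18 counts (5.71, 5.05 to 6.48), and its interval at lower coordinates held 423 and 17. On the embryo side, an Lx7 on an exon of Rian held 15 counts in fibroblasts and 18781 in embryos (-9.58, -10.43 to -8.87), and a neighbouring Lx held 4 and 4476. An L1ME4a on an exon of Peg3 held 0 and 1313. Loci with many counts in both tissues were an Lx5 on chromosome 3, with 14729 and 21689 counts (0.14) and a match of 391 bases to Rps20 at 99.2% identity, and an L1M2b on an exon of Cyb5r3, a reductase gene, with 1217 and 1974 (0.00).

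Among other LINE loci, those named on the embryo side all overlapped exons. In fibroblasts, an L3 in an intron of Masp1 held 950 counts against 365 in embryos (2.08, below 2 under the total of the 6 tables), an L2a on chromosome 4, 30176 bp from the interferon gene Ifne, 345 against 93, and an L2c on an exon of Ccdc85b 127 against 23. In embryos, an L2c on an exon of Meg3 held 7073 counts against 3 in fibroblasts (-10.46, -12.78 to -8.96). An L2a on an exon of Igfbp4 held 5404 against 116 and an L3 on an exon of Igfbp5 3659 against 15. Exons of Tubb5, a tubulin gene, and Prelid1, which encodes a mitochondrial lipid transfer protein, held the L2a loci with the most counts within 2-fold, 4206 and 6157 (0.15) and 1597 and 2085 (0.31).

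The place of the loci was compared with the gene annotation, and with no test. Of the LTR loci compared, 18.5% overlapped an exon, 38.8% lay in an intron and 42.7% on no gene. No gene was overlapped by 55.6% of the 27 LTR loci higher in fibroblasts and by 50.7% of the 146 higher in embryos. Of the LINE loci compared, 72.2% were intronic, and 12.8% lay on no gene, against 32% of those higher in fibroblasts and 16% of those higher in embryos.

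Elements with few reads on their flanking intervals and no overlapping gene were counted apart. An element was called isolated in a tissue when it held at least 20 counts, each flanking interval held at most a 10th of that, and no gene overlapped it. In fibroblasts 31 of 228 LTR loci with 20 counts (13.6%) were isolated and 97 of 2563 LINE loci (3.78%). In embryos these were 76 of 440 (17.3%) and 153 of 6354 (2.41%). Counts were not corrected for width, and the compared loci had a median width of 5164 bp for LTR and 302 bp for LINE. A longer element passes the rule more easily, and fewer LINE loci lie on no gene, so LTR and LINE shares cannot be compared. The rule does not show that the reads come from the element. The L1Md_F3 on chromosome 2 and the Lx5 that matches Rps20 passed it, with 24030 and 14729 of 50596 counts on isolated LINE loci in fibroblasts. Isolated IAP loci numbered 2 in fibroblasts and 6 in embryos. Of the 84 LTR loci isolated in either tissue, 23 were isolated in both. RLTR6_Mm gave 18 of the 84 and RLTR46 gave 14.

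The reads on repeats were then summed by the annotated gene that holds them. Of 6233 host genes with at least 20 counts on repeats, 156 were called higher in fibroblasts and 892 in embryos, which is 2.5% and 14.3%. The genes with the most such counts on the embryo side were Rian and Meg3. These are imprinted noncoding RNAs, expressed from the maternal copy of a shared chromosome 12 cluster, and they held 23945 and 7337 counts on repeats in embryos and 19 and 3 in fibroblasts. Most of the embryo counts lay on loci named above, the Lx7 (18781) and Lx (4476) of Rian and the L2c (7073) of Meg3. Peg3, a paternally expressed zinc finger gene, held 1872 in embryos and 0 in fibroblasts, at least 385-fold lower with 3 counts as the floor. Airn, the noncoding RNA antisense to Igf2r, held 3652 against 495 (-2.18, -2.32 to -2.05).

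Igfbp4 and Igfbp5, which encode binding proteins of insulin-like growth factors, held 5404 and 3659 counts against 116 and 15, each on the single repeat already given. Cthrc1, a secreted collagen-related protein, held 1191 against 2, and Cdkn1a, the inhibitor of cyclin-dependent kinases p21, 1386 against 158 on 1 repeat. Fam115a held 1416 against 125, and Mef2a, a transcription factor of muscle, 1181 against 163 spread over 53 repeats.

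On the fibroblast side, the first places went to mmu-mir-2134-4 and Camk2b, through the L1Md_T and RLTR4_Mm loci given above. Il1rl1 held 1674 counts on 8 repeats in fibroblasts and 51 in embryos (5.73, 5.33 to 6.17). Masp1, a protease of the complement lectin pathway, held 1329 against 486 (2.15). Sdpr, a caveolar protein, held 412 against 82 (3.02) and Gnb1l 429 against 140 (2.31). The chromosome 16 L1Md_T given above, with 324 and 26 counts, lies within Gnb1l, and the part of ribosomal RNA in its counts was not tested. The noncoding Gm6634 and Gm17311 held 651 against 247 (2.10) and 456 against 48 (3.94). Under scaling by the total of the 6 tables, Masp1, Gnb1l and Gm6634 would not pass 2.

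**Figure D4:**
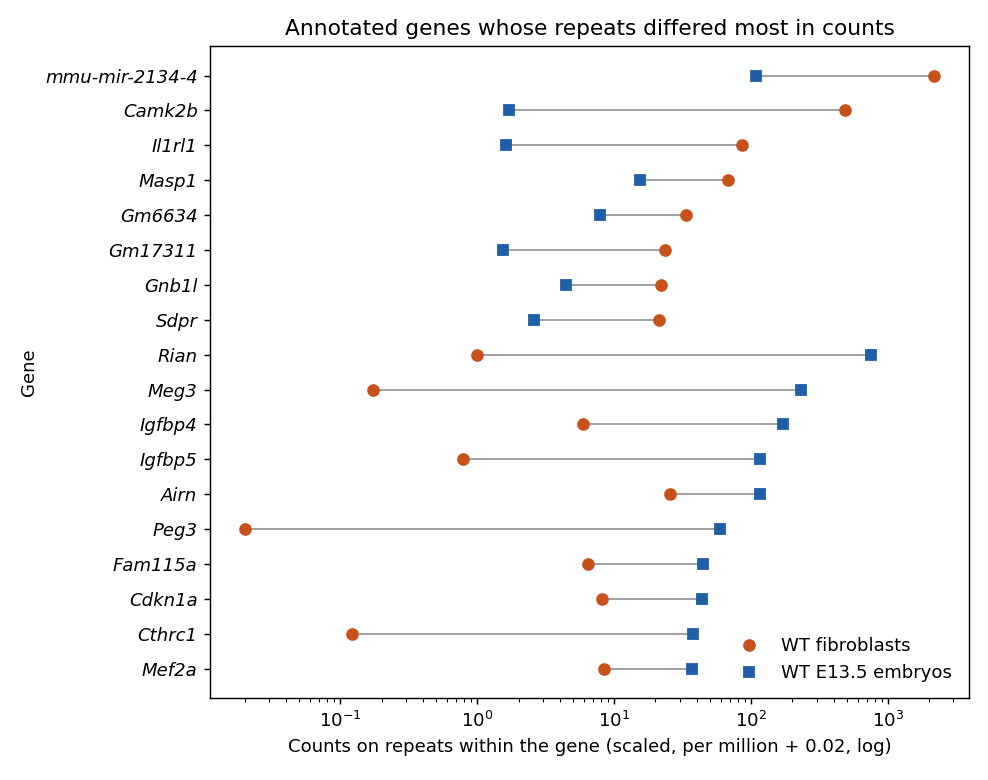
Scaled CPM on repeats within annotated genes, with 0.02 added on a log axis, in WT fibroblasts (circles) and WT E13.5 embryos (squares), for genes with the most counts among those called higher in each tissue (8 for fibroblasts and 10 for embryos). Rian, Meg3 and Peg3 show the widest gaps on the embryo side and Camk2b on the fibroblast side.

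The tables hold no gene counts, so the labelled tissues were checked by the flanking intervals that fall on exons. A gene's counts are sums over these intervals. They can overlap, so that a read counts more than once, and exons outside them are missed. Of 14033 genes compared in this way, 309 (2.2%) were called higher in fibroblasts and 2903 (20.7%) in embryos. Many markers of other tissues were at or near 0 in fibroblasts, but not all. Of 15 skeletal and cardiac muscle genes, 14 were higher in embryos and 7 had 0 counts in fibroblasts, with 124 counts in all in fibroblasts and 29889 in embryos. Actc1, cardiac actin, held 0 and 11170 counts, Des, desmin, 0 and 7530, and Myog, a myogenic transcription factor, 0 and 1370. The cartilage collagen Col2a1 held 0 and 8060, the fetal liver product Afp 1 and 2806, and the vascular receptor Kdr 0 and 241. Higher in embryos were also 4 of 6 cartilage and bone genes, 4 of 5 liver, 5 of 6 endothelial, 5 of 6 erythroid (the transferrin receptor gene Tfrc was higher in fibroblasts, 3104 and 1097), 3 of 3 epithelial and 3 of 5 leukocyte genes. Of 18 neural genes, 12 were higher in embryos, among them the axon guidance receptors Robo1 (3 and 2080) and Robo2 (1 and 832), while Ank3 was higher in fibroblasts (681 and 216, 2.35). Tubb3 (848 and 572, 1.27), Dscam (9 and 11, 0.40) and Dpysl3 (7745 and 11721, 0.10) also lay above 0, and Ncam1 (6040 and 13124, -0.42) and Pax6 (80 and 167, -0.36) near it. Of the Pax6 counts, 97.6% lay on intervals shared with another gene. Other listed markers with many counts in fibroblasts were the cartilage and bone genes Col11a1 (1661 and 78460), Runx2 (1582 and 1954) and Sox9 (738 and 980), the vascular receptor Flt1 (1614 and 3382) and the leukocyte receptor Csf1r (1307 and 2936), of whose counts 85.3% lay on intervals shared with another gene.

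Of 23 listed fibroblast and matrix genes, 20 could be measured, and each of these had counts in fibroblasts. None was called higher in fibroblasts and 10 were higher in embryos, with a median of -1.99 beside -0.32 for all genes. Col1a1 held 22126 counts in fibroblasts and 181150 in embryos, although 54.9% of these lie on intervals shared with another gene. Col3a1 held 4188 and 401595 (-5.89), Thbs2 6 and 7592, and Vim, the intermediate filament vimentin, 110360 and 99716 (0.84). Vim was the only member above 0.

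Proliferation genes lay above 0 in 15 of 15 cases, with a median of 1.45 and a range of 0.83 to 2.25, and Cenpf, a kinetochore protein (4666 and 1592 counts), was called. Under the total of the 6 tables, Cenpf, Ank3 and Tfrc would not pass 2. Mki67 held 10086 and 4437 counts (1.88). Cdkn2a, which encodes the tumour suppressors p16 and p19Arf, held 5419 in fibroblasts and 359 in embryos (4.61). Genes known to silence retroelements gave a median of 0.16 over 13. Hells, the gene of Lsh, was called higher in fibroblasts by a narrow margin that another scaling would remove (7848 and 3151, 2.01) and Uhrf1, a cofactor of maintenance methylation, reached 1.92 (773 and 332). Dnmt3a, a de novo DNA methyltransferase, was higher in embryos (300 and 2373, -2.29). Hells intervals also held 6216 and 2038 counts in the Lsh-/- fibroblast and embryo libraries, and whether they lie outside the deleted part was not determined, so they do not check that label. Of 11 imprinted and clustered genes, 10 were higher in embryos, and Ube3a was the exception (656 and 569, 0.90). The fetal growth factor Igf2 held 38 counts in fibroblasts and 170747 in embryos, and Mest 31 and 38064. Intervals shared with another gene held 47.8% of the Mest counts and 100% of those of the listed Meg3 and Mirg.

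**Figure D5:**
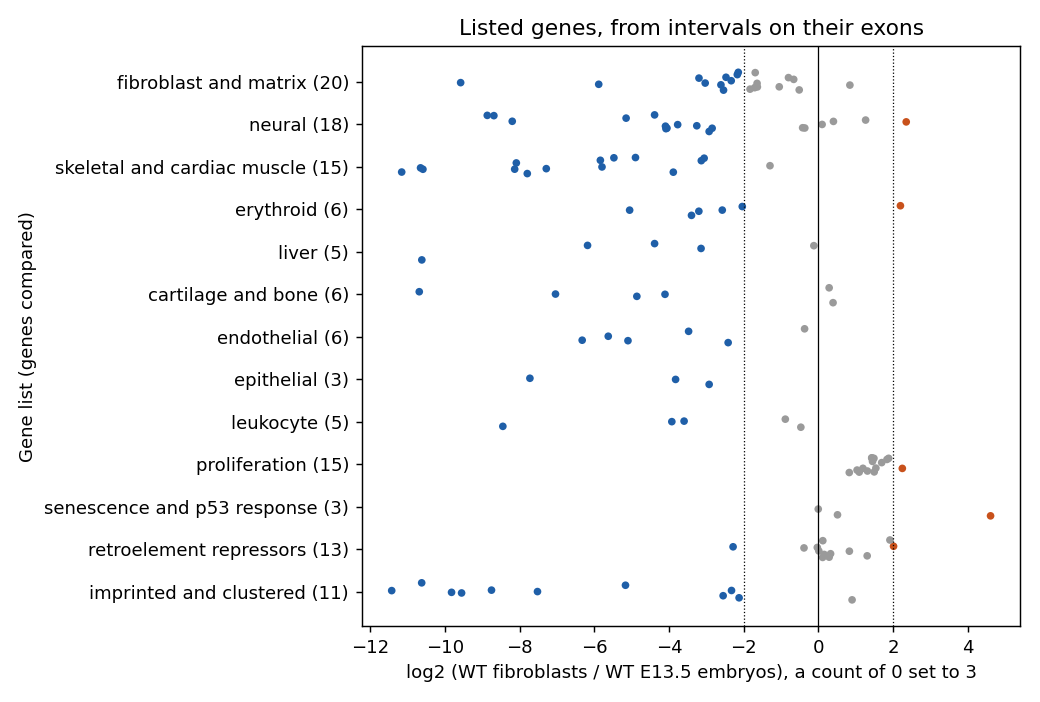
Log2 differences (x axis, fibroblasts over embryos, with a count of 0 set to 3) of listed genes, from flanking intervals on their exons, with the number of genes compared in brackets. Each point is a gene, dotted lines mark 4-fold and colours the calls. Muscle genes sit between -11.16 and -1.30, and proliferation genes between 0.83 and 2.25.

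The same loci were looked up in the Lsh-/- libraries, which share the tissues but not the genotype and are no replicates. Of the 146 LTR loci higher in WT embryos, 117 had at least 20 counts in the Lsh-/- pair, and 64 of these (54.7%) were again over 4-fold higher in embryos and 3 in fibroblasts. Of the 27 higher in WT fibroblasts, 20 could be compared and 7 (35%) were again higher there. Over all 1703 LTR loci compared in the Lsh-/- pair, 45.9% were higher in fibroblasts and 9.04% in embryos. These are not the 557 loci of the WT pair, and autosomal LTR counts were 183320 in Lsh-/- and 74178 in WT fibroblasts. The shares are therefore no like background for the calls kept. The 12 IAP loci higher in WT embryos gave 3 in the same direction and 1 in the opposite, and the 4 higher in WT fibroblasts gave 0 past the limit in either direction.

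For LINE loci, 486 of 1018 loci higher in WT embryos (47.7%) were again higher in embryos and 11 in fibroblasts, beside 16.1% of all 9540 LINE loci compared in the Lsh-/- pair. Of 175 higher in WT fibroblasts, 76 (43.4%) were again higher there and 5 in embryos, beside 9.26%. RLTR4_Mm on chromosome 11 and the repeats of Rian, Meg3, Igfbp4 and Igfbp5 kept their direction in the Lsh-/- pair, with 3535 and 40, 54 and 19009, 10 and 6765, 116 and 6887, and 26 and 2894 counts in fibroblasts and embryos. Some other named differences were not past 4-fold there, at effective sizes of 14835603 for fibroblasts and 23259472 for embryos. The L1Md_T and L1Md_F3 loci held 1787 and 3516, and 1421 and 2037, and the chromosome 6 RLTR46 335 and 1071. Among host genes, Masp1 held 567 and 550, Gm6634 661 and 472, Gnb1l 118 and 170 and Cdkn1a 549 and 1789.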

How the data were processed

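Paired-end, strand-specific dUTP libraries were sequenced on a HiSeq instrument from 1 sample of WT fibroblasts and 1 of WT E13.5 embryos. The labels give total RNA, and the study's methods describe mRNA-seq libraries. The authors mapped reads to mm9 with TopHat 1.4.0 without mismatches, kept unique hits and joined them to repeatmasker loci. For each library they deposited 6 tables of raw counts, on loci and on intervals beside them. Young, near-identical copies therefore receive few counts, and whether a read pair counts as 1 or 2 is not given in the sources used here. The authors also used edgeR.

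An unlisted locus was given a count of 0, and autosomes only were used. Tables named upstream hold the interval at lower coordinates, whatever the strand. Repeats lying wholly 10 to 11 kb from a LINE locus never held more counts than its interval (100% of 318 in fibroblasts and of 848 in embryos), so intervals were taken as 10 to 11 kb away, for LTR loci too, where this was not checked. The study's text instead describes intervals as wide as the element. Counts were scaled by TMM (edgeR 4.0.16, R 4.3.3) over intervals beside LINE-1 loci, with factors of 0.786 and 1.27. A prior count of 0.125 was added. Loci reaching 20 counts over both libraries were compared and called past 2 on the log2 scale, without a test. Intervals are 95% Clopper-Pearson intervals of a locus's share of the pair's counts, turned into ratios, and cover counting error only. The calls and scaling were tested on simulated data. Alternatives were each table's own total, the 6-table total, DESeq2 1.42.0 size factors, a prior count of 1, no minimum, 50 counts, and a limit of 1. Genes came from GENCODE vM1 on NCBIM37 (mm9). Overlaps were found with bedtools 2.31.1, matches with BLAST 2.17.0, and all else was computed in Python 3.11.15.

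Named loci are, in each class, the 3 with the most scaled counts called in each direction and the 2 with the most counts within 2-fold of equal. Host genes are the 10 with the most counts called in each direction, of which 2 are not reported here, and subfamilies the 5 with the largest share called. The comparison, lists and rules were chosen with earlier results of these data known. Chromosome 18 sequence is not printed.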

Additional observations from a re-analysis of the deposited data

How the results depend on the processing

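The 4 classes gave 8 counts of called loci, each under 7 alternatives. Scaling by each table's own total, by DESeq2 size factors, or with a prior count of 1 left all 8 within 1.5 times the counts reported. Scaling by the total of the 6 tables lowered every log2 difference by 0.51 and raised the other LINE loci higher in embryos from 261 to 396, with the other 7 counts within 1.5 times, and each LINE table's own total raised LINE differences by 0.12. In each sentence that follows, the order is IAP, non-IAP LTR, LINE-1 and other LINE. With no minimum count, loci higher in fibroblasts numbered 263, 425, 25782 and 3636, and those higher in embryos 484, 1059, 34540 and 4962, since a locus with a single read in 1 library then passes. With at least 50 counts they numbered 1, 7, 71 and 13 in fibroblasts and 5, 58, 312 and 80 in embryos, as fewer loci are compared. With a limit of 1 they numbered 5, 63, 822 and 150 in fibroblasts and 19, 216, 2786 and 583 in embryos. More loci were higher in embryos than in fibroblasts in each of the 4 classes under all 7 alternatives. None of them thinned the embryo library to the fibroblast size, so depth and tissue cannot be told apart in this order. Thinned in that way, listed loci numbered 574, 1752, 55076 and 8823 in embryos, against 514, 1396, 54831 and 8742 in fibroblasts. Leaving out single loci, chosen after the data were seen, moved the ratio of LINE-1 totals from 0.961 to 0.793 and that of ERV1 totals from 1.51 to 1.03. No paired analysis was possible because each group has 1 library and the labels carry no replicate numbers. A locus with 0 counts is not shown to be silent, since a count of 0 allows up to 3 counts and unique mapping hides young copies.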

Other observations

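Some loci with few or no counts in WT fibroblasts held counts in WT embryos and in Lsh-/- fibroblasts, and they were singled out after their values were seen. An RLTRETN_Mm that overlaps an exon of Wiz, a zinc finger gene, on chromosome 17 held 0 counts in WT fibroblasts, 193 in WT embryos, 377 in Lsh-/- fibroblasts and 275 in Lsh-/- embryos. An RLTR10D on chromosome 10 that overlaps no gene held 2, 37, 120 and 1033 in the same order. The RLTR6_Mm element with the most counts, on chromosome 11, held 2231 in WT and 191 in Lsh-/- fibroblasts, and 1353 and 1074 in the WT and Lsh-/- embryos. Each value comes from 1 library.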
